A study of Homo sapiens with 18 samples.

Results

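The genes described here are 52 that encode the proteins of human DNA replication origins and forks, out of 27968 gene symbols in the deposited tables. They were chosen by gene name, with earlier results of these data known. They fall into the origin recognition complex, licensing factors, the MCM proteins, origin firing factors, the GINS complex and DNA polymerases. The rest are the sliding clamp with its loaders, fork processing enzymes, RPA, chromatin assembly factors and regulators of S phase entry. All 52 were found, and all 52 passed the filter on low counts in both cell lines. RNA was sequenced from A549, a lung cancer line, transfected with one of 3 different siRNAs against BLM (siRNA1, siRNA2 and siRNA3) or with a control siRNA, and from MDA-MB-231, a breast cancer line, transfected with BLM siRNA1 or with a control siRNA. Each of these 6 groups held 3 libraries, made from total RNA with a stranded kit after removal of ribosomal RNA, and siRNA1 is taken to be the same siRNA in both lines from its shared name. BLM is a RecQ-family DNA helicase that acts in homologous recombination and at stalled forks, and the study was set up to profile genes that depend on it. Both lines were grown in DMEM with serum, and the labels do not tell which libraries came from flat and which from 3D culture. The labels do not state that the 3 libraries of a group come from separate cultures, so the p-values here reflect only how far these libraries differ, and that spread may be technical.

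Replication begins when the origin recognition complex binds DNA and, with CDC6 and CDT1, loads the ring-shaped MCM2 to MCM7 helicase in G1 phase, a step that geminin blocks by binding CDT1. In S phase the kinase CDC7 with its activator DBF4, and cyclin-dependent kinases, convert the loaded ring into the active helicase by adding CDC45 and GINS. Polymerase alpha-primase then lays down primers, RFC loads the clamp PCNA, polymerases epsilon and delta copy the strands, FEN1 and LIG1 join lagging strand fragments, RPA covers single-stranded DNA, and CAF-1 puts histones onto the new DNA. In dividing human cells many of these genes are transcribed in late G1 and S phase under E2F factors, which makes their RNA a common readout of proliferation.

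Promoter sequence was read for the members from RefSeq windows of the GRCh38.p14 build, each covering 250 bases before to 50 bases after the annotated start. The expression tables were made on hg19 and carry no coordinates. The windows of 44 of the 52 members were matched, and those of MCM4, MCM5, GINS4, POLD3, DSCC1, RPA2, RPA3 and CCNE2 were not. For each member the first listed window was used, while the share over all windows counts every window listed. Those windows were not matched to the members for expression or base composition, so the shares below are a description only. An E2F-type word, TTTCGCGC, TTTGGCGC or TTTCCCGC on either strand, stood in 20 of the 44 windows (45.45%), against 2.737% of the 35116 windows in the RefSeq table. Before the start alone the counts were 14 of 44 (31.82%) against 2.324%. The CCAAT box of NF-Y, read on both strands, stood in 24 of the 44 windows (54.55%), against 34.61% of all windows. The words TTTGAA and TTCGAA of the CHR element, on either strand, stood in 2 of 44 (4.545%), against 16.35%. These words can overlap, as TTTGGCGC and TTTCGCGC do in the MCM6 window, and a match is a string of letters and not a measured binding site.

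For 10 members a stretch of 60 bases before the start is shown, in the direction of the gene. Each was placed to hold the E2F-type word farthest before the start or, without one, the CCAAT box farthest before it. With neither word it covers the last 60 bases. A marked word is thus there by choice, and the stretches lie at different distances from the start. They belong to the 5 members that were lowest with siRNA1 in A549 (MCM10, CDC45, CDC6, CDT1 and ORC1), to MCM6, to POLD2 and PCNA, whose fold changes were small there, and to ORC4 and ORC5, which were called higher with siRNA1 in MDA-MB-231. Capitals mark E2F-type words (in CDT1, MCM6 and PCNA) and CCAAT boxes (in MCM10, CDC45, CDC6, ORC1, POLD2 and PCNA). The CDC6 window also holds 1 E2F-type word, which is not wholly before the start and lies outside the stretch shown. The ORC4 and ORC5 windows hold none of the words searched.
MCM10: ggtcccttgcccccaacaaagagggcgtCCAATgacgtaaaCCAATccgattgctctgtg
CDC45: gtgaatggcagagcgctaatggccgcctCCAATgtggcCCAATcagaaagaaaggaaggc
CDC6: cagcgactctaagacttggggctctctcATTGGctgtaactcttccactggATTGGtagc
CDT1: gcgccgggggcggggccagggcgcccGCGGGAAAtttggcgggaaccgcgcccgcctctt
ORC1: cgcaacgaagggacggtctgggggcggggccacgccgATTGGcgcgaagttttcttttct
MCM6: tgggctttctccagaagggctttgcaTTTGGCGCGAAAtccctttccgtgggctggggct
POLD2: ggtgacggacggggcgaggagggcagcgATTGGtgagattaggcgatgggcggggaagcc
PCNA: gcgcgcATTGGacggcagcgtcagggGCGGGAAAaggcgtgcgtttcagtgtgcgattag
ORC4: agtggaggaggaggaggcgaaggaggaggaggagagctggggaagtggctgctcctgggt
ORC5: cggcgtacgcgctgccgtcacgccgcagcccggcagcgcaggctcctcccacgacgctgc

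On GRCh38.p14 the stretches lie at chr10:13161412-13161471 (plus strand) for MCM10, chr22:19479780-19479839 (plus strand) for CDC45, chr17:40287725-40287784 (plus strand) for CDC6, chr16:88803728-88803787 (plus strand) for CDT1 and chr1:52404424-52404483 (minus strand) for ORC1. Those of the other members shown are chr2:135876562-135876621 (minus strand) for MCM6, chr7:44123585-44123644 (minus strand) for POLD2, chr20:5126648-5126707 (minus strand) for PCNA, chr2:148021552-148021611 (minus strand) for ORC4 and chr7:104208014-104208073 (minus strand) for ORC5. E2F-type words were present and absent among members with large changes: MCM10, CDC45 and ORC1 had none in the window and 2, 4 and 1 CCAAT boxes. CDT1 and CDC6, which also fell far, each had 1 E2F-type word. PCNA, with a small change, had an E2F-type word and 3 CCAAT boxes. The median log2 fold change with siRNA1 in A549 was -2.51 for the 20 members with an E2F-type word, which ran from -4.98 to -0.81. For the 24 without one the median was -2.21, and they ran from -5.98 to -0.30. With siRNA1 in MDA-MB-231 the medians were -0.92 and -0.78.

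The libraries held between 30143047 and 40328208 expected counts, the read estimates of RSEM. BLM RNA checked the labels: it averaged 0.583, 4.65 and 2.63 TPM (a level per unit of transcript length, with the same total in each library) with siRNA1, siRNA2 and siRNA3 in A549, against 32.0 TPM in the A549 control, and 2.59 TPM with siRNA1 in MDA-MB-231, against 16.6 TPM in its control. Summed over 9 genes typical of A549, the level was 10453 to 35838 TPM in A549 and 1010 to 1413 TPM in MDA-MB-231. The sum over 8 genes typical of MDA-MB-231 did not part the lines: it was 5365 to 5655 TPM with siRNA1 and 7192 to 7542 TPM in the control of MDA-MB-231, and 4248 to 5523 TPM with the siRNAs and 2676 to 2994 TPM in the control of A549. The third siRNA3 library of A549 stood apart: around its group mean the log2 deviations of all genes tested had an SD of 0.246, against 0.102 to 0.169 in the other 17 libraries, and it went with transcript length (Spearman -0.586 across genes). The same value was 0.496 and 0.414 in the other siRNA3 libraries, and between -0.355 and 0.260 in the other groups. Deviations from a mean of 3 offset one another, so the length trend cannot be assigned to the third siRNA3 library alone. Given its wider spread, results of siRNA3 against the control that rest on this library are given with and without it. Proliferation markers moved with the members. The summed level of MKI67, TOP2A, CCNB1, CDK1, AURKA and BUB1 was 73.8 to 77.6, 874 to 897 and 660.4 to 817 TPM with siRNA1, siRNA2 and siRNA3 in A549, against 1411 to 1557 TPM in the control. In MDA-MB-231 it was 508 to 556 TPM with siRNA1, against 1543 to 1583 TPM in the control. All 6 markers were called lower with siRNA1 and siRNA3 in A549 and with siRNA1 in MDA-MB-231, and 5 of them with siRNA2, where MKI67 was not called (-0.29 ± 0.23, adjusted p = 0.285). CDKN1A, which encodes the cell cycle inhibitor p21, averaged 979, 161 and 138 TPM with the 3 siRNAs in A549, against 58.1 TPM in the control, and 571 TPM with siRNA1 in MDA-MB-231, against 223 TPM. The part of these changes in the members' levels was not tested, and in RNA from whole cultures fewer cells in S phase and less RNA of these genes per cell cannot be told apart.

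Most replication genes fell with each of the 3 BLM siRNAs in A549 and with siRNA1 in MDA-MB-231. A gene was called changed where edgeR's quasi-likelihood test on the expected counts gave a Benjamini-Hochberg adjusted p under 0.05 over all genes tested. With siRNA1 in A549, 52 of the 52 members fell, where 32.8% of the 15898 genes tested were called lower. With siRNA2, 50 of 52 fell, beside 28.4% of all genes, and with siRNA3 48 of 52 fell, beside 30.4%. With siRNA1 in MDA-MB-231, 47 of 52 fell, beside 27.8% of 15280 genes, and 2 rose (ORC4 and ORC5), beside 27.5%. In all 4 comparisons 43 of the 52 members were called lower, beside 7.38% of the 14300 genes tested in both lines. The 3 A549 comparisons share their control libraries, so they are not independent of one another. By scaled counts, 38.6% of all genes tested lay wholly below the control with siRNA1 in A549, and 38.4% wholly above. The shares below and above were 36.8% and 34.5% with siRNA2, 34.6% and 29.6% with siRNA3, and 31.7% and 30.8% with siRNA1 in MDA-MB-231. Of the members 52, 50, 49 and 48 lay wholly below, and 0, 0, 1 and 2 above. Lack of overlap alone thus does not set a gene apart.

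The size of the fall differed far more than its direction. The median log2 fold change of the members was -2.48 with siRNA1 in A549, which leaves 17.97% of the control level, while the median of all genes tested was 0.09. It was -0.89 with siRNA2, -0.80 with siRNA3 and -0.87 with siRNA1 in MDA-MB-231, each beside a median of all genes between 0.00 and 0.04. A fall of at least 1 on the log2 scale was called for 44 members with siRNA1 in A549 (11.5% of all genes), 22 with siRNA2 (5.85%), 17 with siRNA3 (8.99%) and 12 with siRNA1 in MDA-MB-231 (4.71%). The share of all counts that fell on the members was 0.154% to 0.156% with siRNA1, 0.2999% to 0.312% with siRNA2 and 0.302% to 0.316% with siRNA3, against 0.544% to 0.575% in the A549 control. In MDA-MB-231 it was 0.253% to 0.265% with siRNA1, against 0.3998% to 0.424% in the control. No siRNA group overlapped its control in this share. Fold changes come from counts scaled between libraries and so differ from ratios of TPM. On log2 of TPM plus 1 the median of all genes with siRNA1 in A549 stood at 0.23 in place of 0.09. The members' median there was -2.12 in place of -2.48, and with siRNA2 it was -0.75 in place of -0.89.

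**Figure D1:**
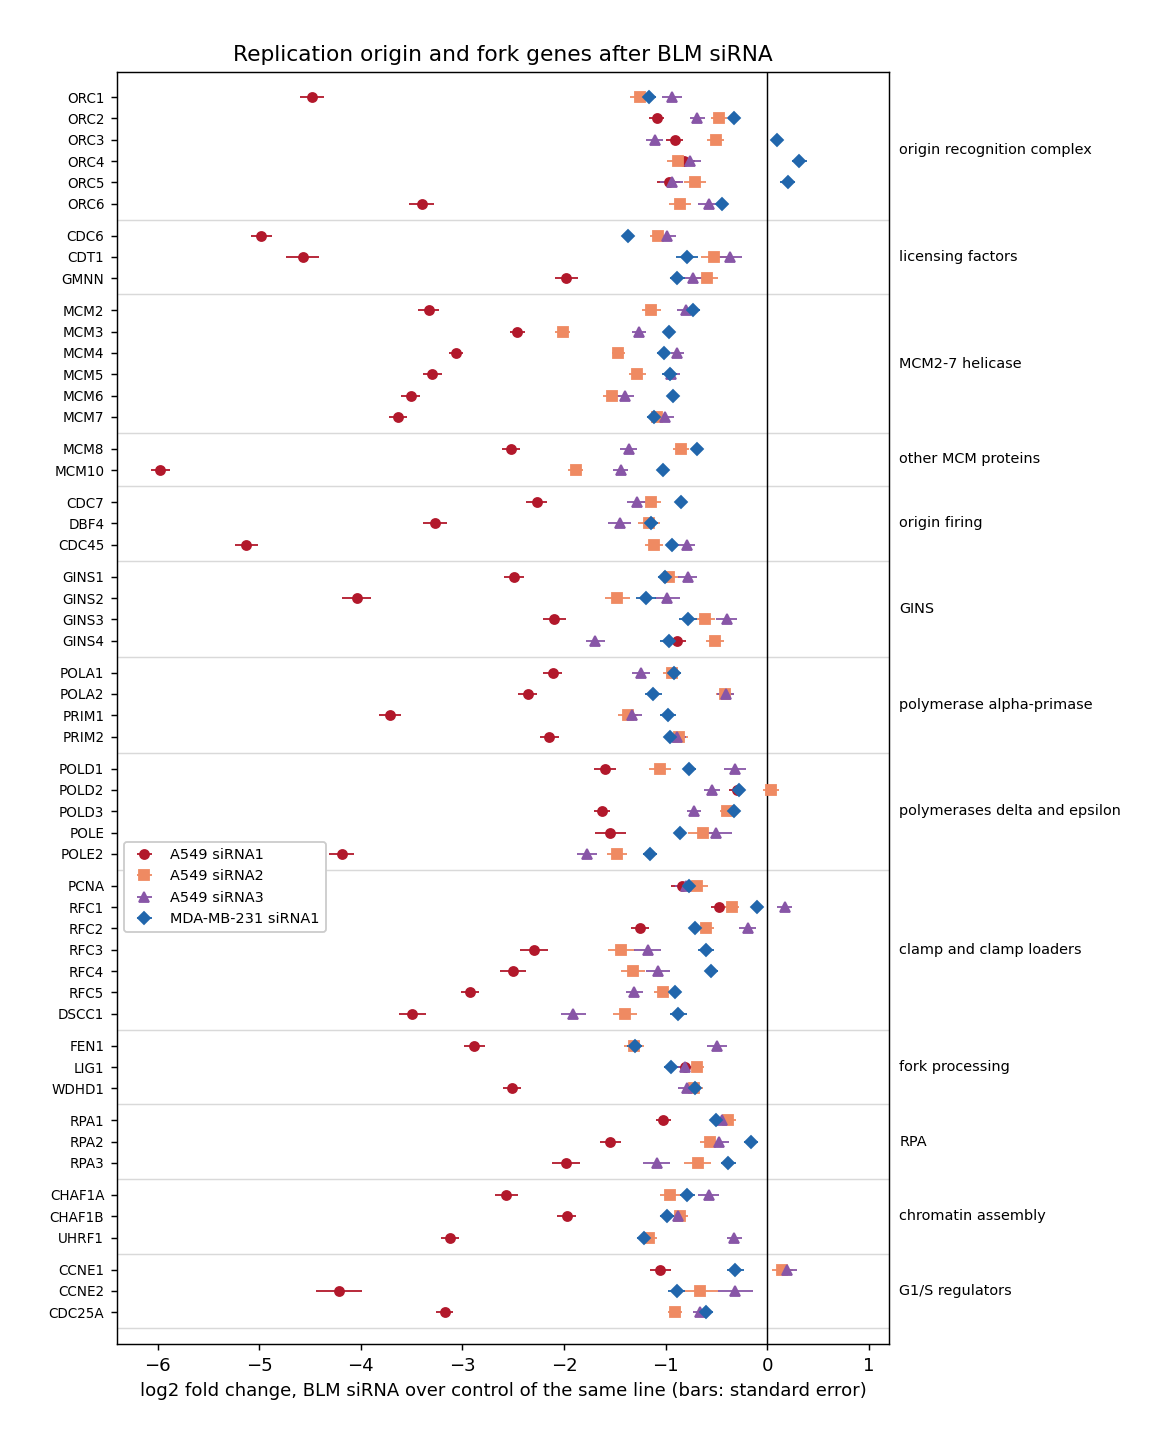
Log2 fold changes of all 52 members, siRNA over the control of the same line, one row per gene and grouped by complex; points are edgeR estimates from 3 against 3 libraries and bars are standard errors. The siRNA1 points of A549 lie farthest to the left for most genes, down to -5.98 for MCM10, while ORC3, ORC4 and ORC5 lie to the right of 0 in MDA-MB-231.

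Within the origin recognition complex, siRNA1 in A549 lowered ORC1 and ORC6 far more than ORC2 to ORC5. ORC1, the largest subunit, whose protein is degraded in S phase in human cells, had 1.56, 1.33 and 1.87 TPM with siRNA1, 13.8, 13.3 and 12.9 TPM with siRNA2 and 15.3, 17.0 and 14.1 TPM with siRNA3 in A549, against 30.3, 28.2 and 30.8 TPM in the control. Every siRNA library lay below every control library, and the siRNA1 libraries lay far below the rest. The log2 fold changes were -4.48 ± 0.12 (SE; adjusted p = 1.55e-12), -1.25 ± 0.10 and -0.94 ± 0.10. In MDA-MB-231, ORC1 had 10.2, 10.5 and 10.7 TPM with siRNA1, against 23, 22.5 and 21.2 TPM in the control, a change of -1.16 ± 0.07. ORC6, the smallest subunit, changed by -3.40 ± 0.12 with siRNA1 in A549 and by -0.45 ± 0.06 in MDA-MB-231.

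The other 4 subunits fell in A549 by 0.82 to 1.09 with siRNA1, by 0.48 to 0.88 with siRNA2 and by 0.69 to 1.11 with siRNA3. ORC2 fell more with siRNA1 than with siRNA2 or siRNA3 by direct test, while ORC4 and ORC5 were not called between siRNA1 and either of them. ORC3 was lowest with siRNA3, at 19.5, 19.7 and 18.01 TPM, against 25.5, 28.9 and 24.8 TPM with siRNA1 and 43.2, 42.6 and 38.6 TPM in the control. By counts, however, ORC3 was not called between siRNA1 and siRNA3 (0.20 ± 0.09, edgeR adjusted p = 0.060). In MDA-MB-231, ORC3, ORC4 and ORC5 were not called lower, by counts or by TPM. ORC4 had 17.2, 17.4 and 17.0 TPM with siRNA1, against 12.5, 11.8 and 15.1 TPM in the control, and it rose by 0.31 ± 0.07 (adjusted p = 0.0051). All its siRNA1 libraries lay above all controls, as they did by scaled counts for 30.8% of the 15280 genes tested. ORC5 had 34.9, 34.4 and 34.0 TPM, against 25.6, 28.4 and 30.8 TPM, and rose by 0.20 ± 0.07 (adjusted p = 0.0348), a call that was lost without any one library other than the third control (adjusted p 0.058 to 0.13). ORC3 had 53.0, 51.7 and 51.6 TPM, against 43.8, 47.3 and 48.0 TPM, with a log2 fold change of 0.09 ± 0.06 that was not called (95% interval -0.03 to 0.22), though its libraries did not overlap in TPM and on log2 TPM it was called higher (0.17, limma-trend adjusted p = 0.0274). ORC2 fell there by 0.32. ORC4 counts were not whole in 18 of 18 libraries, since RSEM also shares reads among similar transcripts of different genes.

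Both loading factors of licensing were among the 5 lowest members with siRNA1 in A549. CDC6, the ATPase that recruits the MCM ring to the origin, had 3.64, 3.62 and 4.05 TPM with siRNA1, 48.6, 53.6 and 49.8 TPM with siRNA2 and 50.1, 54.9 and 45.3 TPM with siRNA3, against 99.3, 103 and 96.6 TPM in the A549 control. In MDA-MB-231 it had 47.7, 45.2 and 43.1 TPM with siRNA1, against 109.6, 107 and 118 TPM. No siRNA library came near its controls in either line. The log2 fold change was -4.98 ± 0.10 with siRNA1 in A549 (adjusted p = 2.02e-13), and -1.37 ± 0.05 in MDA-MB-231, where CDC6 was the lowest of the 52 members (adjusted p = 6.22e-08).

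CDT1, which brings the MCM ring to ORC, had 0.76, 1.26 and 1.39 TPM with siRNA1, 17.4, 17.5 and 15.1 TPM with siRNA2 and 18.2, 17.5 and 16.1 TPM with siRNA3, against 20.6, 21.9 and 25.0 TPM in the control. It was all but lost with siRNA1, at 36, 53 and 60 expected counts against 1077, 1175 and 1333 in the control, while the other 2 siRNAs left most of it. The log2 fold changes were -4.57 ± 0.16, -0.53 ± 0.13 and -0.37 ± 0.13, and the last (adjusted p = 0.0211) was not called without the first or second siRNA3 library, or the second or the third control library (adjusted p 0.053 to 0.089). On log2 of TPM plus 0.1, CDT1 was called neither with siRNA2 (-0.43, limma-trend adjusted p = 0.0527) nor with siRNA3 (-0.38, adjusted p = 0.0854). GMNN, the gene of the CDT1 inhibitor geminin, had 34.8, 36.5 and 34.6 TPM with siRNA1, against 121, 125 and 107 TPM, a log2 fold change of -1.98 ± 0.12. The ratio of CDT1 to GMNN levels in TPM was therefore 0.0219, 0.0346 and 0.0401 with siRNA1, against 0.17, 0.174 and 0.233 in the control. With siRNA2 and siRNA3, and with siRNA1 in MDA-MB-231, this ratio overlapped the controls.

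The 6 genes of the MCM2 to MCM7 helicase fell together. Their summed level was 119, 115 and 124 TPM with siRNA1, 393, 389 and 377 TPM with siRNA2 and 468, 487 and 391 TPM with siRNA3, against 924, 902 and 948 TPM in the A549 control, or 12.9%, 41.8% and 48.5% of the control mean. In MDA-MB-231 the sum was 373, 363 and 349.7 TPM with siRNA1, against 703, 680.2 and 644 TPM, which is 53.5%. No siRNA library reached any control library. For 3 against 3 libraries an exact two-sided permutation test cannot give less than p = 0.1, and each of these sums gave 0.1 (0.108 adjusted over 40 sums and ratios).

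All 6 MCM2 to MCM7 genes fell in each of the 4 comparisons, but their order differed. With siRNA1 in A549 the change ran from -2.46 ± 0.07 for MCM3 to -3.64 ± 0.09 for MCM7. MCM3 had 30.2, 29.4 and 30.3 TPM with siRNA1, 37.1, 36.0 and 36.3 TPM with siRNA2 and 60.3, 62.8 and 49.4 TPM with siRNA3, against 142, 135 and 136 TPM in the control. MCM3 was thus the least reduced of the 6 with siRNA1 and the most reduced of all 52 members with siRNA2, at -2.01 ± 0.07 (adjusted p = 3.04e-10). MCM7 counts were not whole in 18 of 18 libraries. MCM7 had 28.8, 27.1 and 30.9 TPM with siRNA1, 155, 152 and 147 TPM with siRNA2 and 153, 159.7 and 136 TPM with siRNA3, against 296, 290.4 and 317 TPM. Its log2 fold changes were -3.64, -1.09 and -1.002, and -1.11 in MDA-MB-231. MCM6 fell by 1.53 with siRNA2 and by 1.40 with siRNA3, and in MDA-MB-231 the 6 genes kept within -1.11 and -0.73. MCM2 was the least reduced of the 6 there, at 47.2, 47.4 and 43.9 TPM with siRNA1, against 75.3, 73.9 and 68.8 TPM in the control.

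MCM10, which is not part of the ring and is needed to activate it, was the lowest member with siRNA1 in A549. It had 0.91, 0.86 and 0.91 TPM with siRNA1, 13.9, 13.2 and 14.0 TPM with siRNA2 and 19.0, 18.9 and 14.2 TPM with siRNA3, against 47.6, 47.2 and 46.8 TPM in the control. The siRNA1 libraries held 76, 63 and 69 expected counts, against 4352, 4431 and 4364 in the control. The change with siRNA1 was -5.98 ± 0.10, a 62.9-fold lower level (adjusted p = 4.86e-14), followed by -1.88 ± 0.07 with siRNA2 and -1.44 ± 0.07 with siRNA3. In MDA-MB-231, MCM10 had 15.5, 14.4 and 14.7 TPM with siRNA1, against 27.9, 28.7 and 29.3 TPM in the control, a change of -1.02 ± 0.06, beside the members' median of -0.87. MCM8, whose product works with MCM9 in homologous recombination, had 14.9, 16.2 and 13.4 TPM with siRNA1, against 76.8, 67.4 and 69.4 TPM, and changed by -2.52 ± 0.09.

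**Figure D2:**
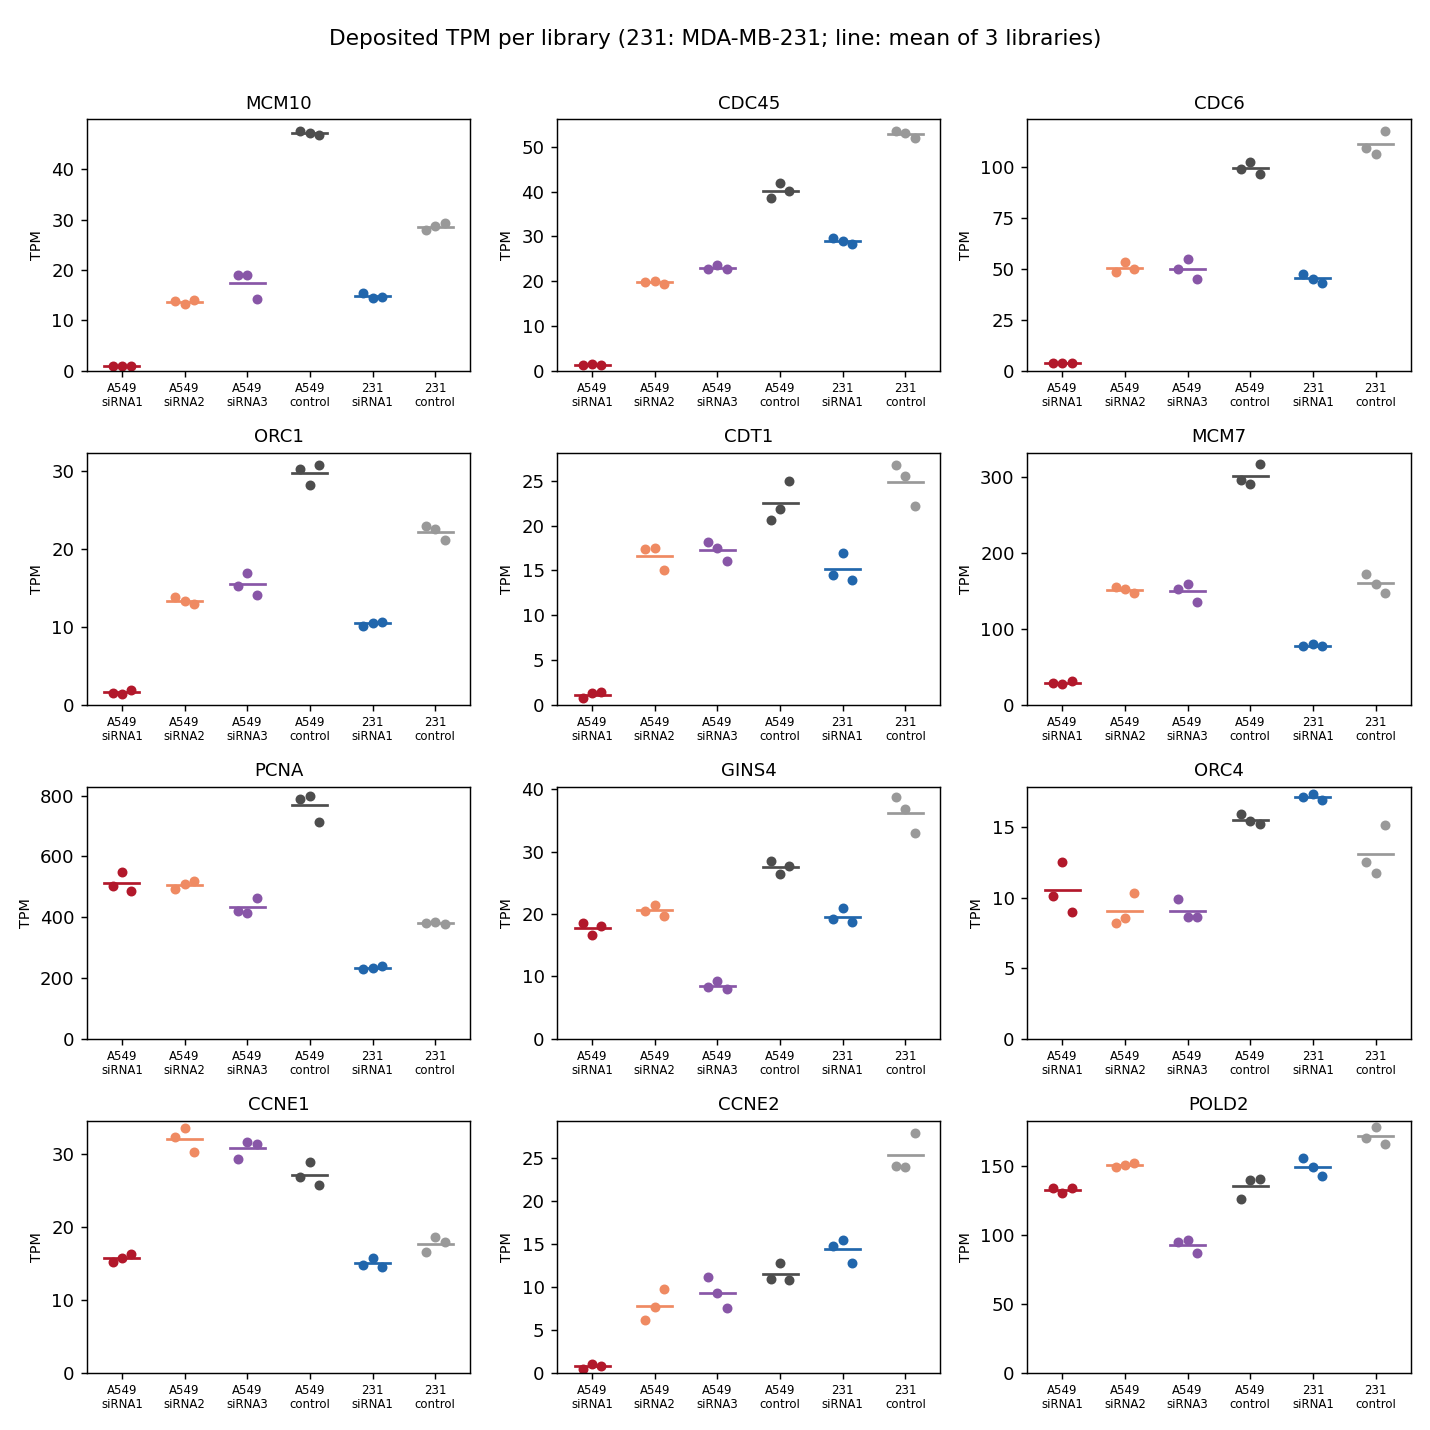
Deposited TPM of 12 members in each of the 18 libraries, one panel per gene with its own axis from 0; points are libraries and lines are means of 3. MCM10, CDC45, CDC6, ORC1, CDT1, MCM7 and CCNE2 lie near 0 with siRNA1 in A549, PCNA and POLD2 keep most of their level, and ORC4 lies above its control in MDA-MB-231.

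Among the firing factors, CDC45 followed MCM10. CDC45, the helicase cofactor that is loaded at the start of S phase, had 1.28, 1.48 and 1.35 TPM with siRNA1, 19.9, 20.1 and 19.5 TPM with siRNA2 and 22.7, 23.5 and 22.7 TPM with siRNA3, against 38.5, 42.0 and 40.2 TPM in the control. The siRNA2 libraries lay just below the siRNA3 libraries without overlap, and those of siRNA1 far below both. It changed by -5.13 ± 0.12 with siRNA1 (adjusted p = 3.98e-13), -1.12 ± 0.09 with siRNA2 and -0.79 ± 0.09 with siRNA3. In MDA-MB-231 it had 29.8, 28.9 and 28.2 TPM with siRNA1, against 53.5, 53.1 and 52.0 TPM. The kinase gene CDC7 and its activator DBF4 fell in all 4 comparisons. DBF4 changed by -3.27 ± 0.12 with siRNA1, -1.16 ± 0.11 with siRNA2 and -1.45 ± 0.11 with siRNA3 in A549, against -2.27 ± 0.10, -1.14 ± 0.10 and -1.28 ± 0.10 for CDC7. In MDA-MB-231, DBF4 changed by -1.15 ± 0.07 and CDC7 by -0.84 ± 0.06, with CDC7 at 24.0, 21.6 and 22.3 TPM with siRNA1, against 39.3, 36.5 and 40.04 TPM in the control.

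GINS is a ring of 4 proteins, and its genes did not move alike. Their summed level was 20.4%, 50.8% and 52.6% of the control with siRNA1, siRNA2 and siRNA3 in A549, and 51.7% in MDA-MB-231. GINS2 led with siRNA1, at 7.56, 7.54 and 9.36 TPM, against 109, 119 and 109 TPM in the control, a change of -4.04 ± 0.14 (adjusted p = 2.51e-11). GINS4 was the exception. It had 18.6, 16.7 and 18.1 TPM with siRNA1, 20.5, 21.5 and 19.8 TPM with siRNA2 and 8.25, 9.21 and 7.95 TPM with siRNA3, against 28.5, 26.4 and 27.7 TPM in the control. Its siRNA3 libraries were the lowest and lay apart from those of the other 2 siRNAs. GINS4 changed by -0.88 ± 0.09, -0.52 ± 0.09 and -1.69 ± 0.09, so that with siRNA3 only DSCC1 and POLE2 had lower values. With siRNA1, GINS4 was among the least reduced members. In MDA-MB-231 it had 19.1, 20.9 and 18.7 TPM with siRNA1, against 38.8, 36.9 and 33.0 TPM, close to the fall of GINS1 and GINS2 there (-0.96, -1.005 and -1.197).

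The 4 genes of polymerase alpha-primase, which makes the primers, fell in all 4 comparisons. Their summed level with siRNA1 in A549 was 32.1, 34.5 and 32.6 TPM, against 195, 188 and 175 TPM, or 17.8% of the control. PRIM1, the catalytic primase subunit, fell most, to 7.38, 9.17 and 8.30 TPM with siRNA1, against 96.8, 95.1 and 80.9 TPM (-3.72 ± 0.11). POLA1, the polymerase subunit, had 9.66, 10.3 and 10.3 TPM, against 38.0, 35.4 and 36.1 TPM (-2.11 ± 0.09), about the change of PRIM2 (-2.14 ± 0.09). POLA2 fell least with siRNA2 (-0.41) and siRNA3 (-0.41) and most in MDA-MB-231 (-1.12).

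For polymerases delta and epsilon the summed level of 5 genes was 63.5% of the control with siRNA1, 84.5% with siRNA2 and 64.5% with siRNA3 in A549, and 75.7% with siRNA1 in MDA-MB-231. POLD2, a small subunit of polymerase delta, was the most abundant of the 5, weighs most in this sum and changed least with siRNA1. The median gene of the 5 kept 33.1% of the control with siRNA1, 64.6% with siRNA2 and 68.4% with siRNA3 in A549, and 58.8% with siRNA1 in MDA-MB-231, lower than the sum in 3 of these 4 comparisons. POLD2 had 134, 130.2 and 134 TPM with siRNA1, 149, 150.4 and 152 TPM with siRNA2 and 95.05, 96.3 and 86.8 TPM with siRNA3, against 126, 139.9 and 141 TPM in the control. On this TPM scale siRNA1 overlapped the control, siRNA2 lay above it and siRNA3 lay below it. By counts POLD2 changed by -0.30 ± 0.08 with siRNA1 (adjusted p = 0.00334), but on log2 TPM the value was -0.03 and was not called (limma-trend adjusted p = 0.67). With siRNA2 the value by counts was 0.04 ± 0.08 and was not called (95% interval -0.13 to 0.21), whereas on log2 TPM it was 0.15 and was called higher (limma-trend adjusted p = 0.043). With siRNA3 POLD2 fell by 0.55 (adjusted p = 3.81e-05).

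POLE2, the second subunit of polymerase epsilon, fell further than the other 4 in each comparison. It had 2.28, 2.37 and 2.21 TPM with siRNA1, 12.1, 13.3 and 14.9 TPM with siRNA2 and 9.74, 10.5 and 9.99 TPM with siRNA3, against 37.4, 36.2 and 32.1 TPM in the control. All 9 siRNA libraries lay far below the 3 controls. The changes were -4.19 ± 0.12, -1.48 ± 0.10 and -1.77 ± 0.10, the last the second lowest of all members with siRNA3. POLE, the catalytic subunit, had 28.6, 29.6 and 14.8 TPM with siRNA3, against 34.9, 30.5 and 36.8 TPM, and the third siRNA3 library lay below all the others. The change was -0.50 ± 0.15 with all libraries and -0.30 without that one (adjusted p = 0.0062). POLD1, the catalytic subunit of polymerase delta, had 36.8, 35.6 and 25.7 TPM with siRNA3, against 38.8, 39.6 and 43.9 TPM, and its change of -0.32 ± 0.11 was no longer called without that library (-0.24, adjusted p = 0.060) or without the third control library (-0.28, adjusted p = 0.071).

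PCNA, the sliding clamp, was the most abundant member in every group. It had 504, 548 and 488 TPM with siRNA1, 493, 511 and 519 TPM with siRNA2 and 419.6, 414 and 464 TPM with siRNA3, against 790.4, 799 and 713 TPM in the A549 control. In MDA-MB-231 it had 229, 234 and 239 TPM with siRNA1, against 381, 384 and 378 TPM. The siRNA groups all lay below their controls and the 3 siRNA groups of A549 lay close together. PCNA changed by -0.84 ± 0.11 with siRNA1, -0.69 ± 0.11 with siRNA2 and -0.80 ± 0.11 with siRNA3 in A549, and by -0.77 ± 0.05 with siRNA1 in MDA-MB-231. It was not called between siRNA1 and either of the other siRNAs.

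RFC1 to RFC5 form the clamp loader, and DSCC1 belongs to an alternative loader. The 5 RFC genes summed to 120.4, 131 and 119 TPM with siRNA1, against 392, 403 and 381 TPM (31.5%), to 53.8% of the control with siRNA2 and 57.2% with siRNA3, and to 70.1% with siRNA1 in MDA-MB-231. RFC1, the large subunit, changed least of the 5 in each comparison. It had 31.4, 34.0 and 31.1 TPM with siRNA1, 30.3, 31.4 and 32.5 TPM with siRNA2 and 44.8, 46.6 and 34.8 TPM with siRNA3, against 39.6, 36.8 and 35.8 TPM in the control. It fell by 0.48 with siRNA1 and by 0.35 with siRNA2, but on log2 TPM the values were -0.21 and -0.24 and neither was called (limma-trend adjusted p = 0.072 and 0.051). With siRNA3 the value was 0.17 ± 0.07 and was not called (95% interval 0.01 to 0.33), and without the third siRNA3 library it was 0.22 and was called higher (adjusted p = 0.011). With siRNA1 in MDA-MB-231 RFC1 had a value of -0.10 ± 0.05 and was not called (95% interval -0.21 to 0.01). RFC5 was the most reduced of the RFC genes with siRNA1, at 17.9, 19.3 and 17.9 TPM, against 117, 122 and 114 TPM (-2.92 ± 0.09). RFC2 with siRNA3 had 55.3, 56.9 and 57.0 TPM, against 65.5, 67.0 and 64.1 TPM; its value of -0.19 ± 0.09 was not called, and it was called lower without the third siRNA3 library (-0.29, adjusted p = 0.0033), in the fit of all 18 libraries (-0.24, adjusted p = 0.0216) and on log2 TPM (-0.21, limma-trend adjusted p = 0.0043).

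DSCC1, which helps load PCNA for sister chromatid cohesion, was the lowest member with siRNA3. It had 3.29, 3.83 and 4.08 TPM with siRNA1, 11.9, 14.98 and 15.9 TPM with siRNA2 and 10.7, 9.04 and 8.26 TPM with siRNA3, against 36.5, 37.7 and 31.2 TPM in the control. The changes were -3.49 ± 0.13, -1.40 ± 0.12 and -1.91 ± 0.12 (adjusted p = 2.25e-08 for siRNA3).

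**Figure D3:**
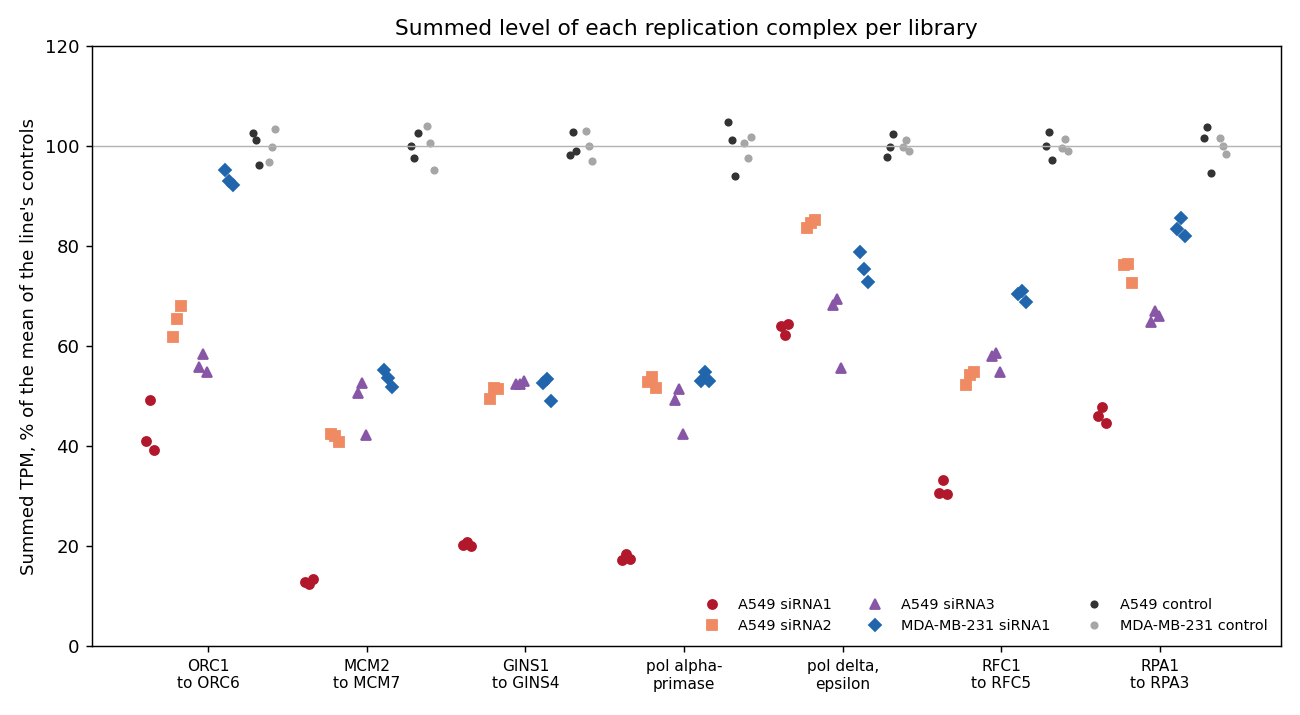
Summed TPM of 7 complexes in each library, as a percentage of the mean of the control libraries of the same line; each point is 1 library. The siRNA1 points of A549 are lowest for MCM2 to MCM7 (12.9% on average) and the siRNA1 points of MDA-MB-231 stay nearest to 100 for ORC (93.5%).

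Of the 3 fork processing genes, FEN1 and WDHD1 fell further than LIG1 with siRNA1 in A549. FEN1, the flap endonuclease of lagging strand maturation, had 26.0, 22.8 and 24.3 TPM with siRNA1, 66.4, 67.4 and 60.02 TPM with siRNA2 and 105, 108 and 104 TPM with siRNA3, against 149, 155 and 148 TPM in the control. It was least reduced with siRNA3 (-0.49 ± 0.10) and the second lowest member in MDA-MB-231, with 87.5, 90.7 and 81.0 TPM with siRNA1, against 215, 203 and 189 TPM (-1.30 ± 0.07, adjusted p = 5.71e-07). LIG1, the ligase that closes the nicks, had 43.1, 44.6 and 45.8 TPM with siRNA1, 42.2, 43.7 and 42.5 TPM with siRNA2 and 40.6, 40 and 30.6 TPM with siRNA3, against 65.3, 63.4 and 68.6 TPM in the control. Like PCNA, it changed about equally with each siRNA, by -0.81, -0.69 and -0.81, and by -0.94 in MDA-MB-231. WDHD1, which links the helicase to polymerase alpha, changed by -2.51 with siRNA1, -0.72 with siRNA2 and -0.79 with siRNA3, and by -0.71 in MDA-MB-231.

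RPA, the single-strand binding complex, was among the groups with the smaller falls. RPA1 to RPA3 summed to 130.4, 136 and 126 TPM with siRNA1, 216, 216 and 206 TPM with siRNA2 and 184, 189.7 and 187 TPM with siRNA3, against 288, 294 and 268 TPM in the control. In MDA-MB-231 the sum was 225, 230.3 and 220.4 TPM with siRNA1, against 273, 269 and 265 TPM. Within the complex the smallest subunit fell most in A549: RPA3 changed by -1.98 ± 0.14 with siRNA1 and -1.09 ± 0.13 with siRNA3, against -1.02 ± 0.07 and -0.45 ± 0.07 for RPA1. RPA2 in MDA-MB-231 had 103, 105 and 99.2 TPM with siRNA1, against 108, 112 and 102 TPM, which overlap, and its value of -0.16 ± 0.07 was not called (adjusted p = 0.0728). Without the third control library of MDA-MB-231 it was -0.24 and was called lower (adjusted p = 0.0011).

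The chromatin factors fell in all 4 comparisons. CHAF1A and CHAF1B encode the large subunits of CAF-1, the histone chaperone that follows PCNA, and UHRF1 binds hemimethylated DNA behind the fork and recruits the methyltransferase DNMT1. UHRF1 had 7.10, 7.96 and 7.13 TPM with siRNA1, 25.3, 25.9 and 26.4 TPM with siRNA2 and 51.0, 44.0 and 35.4 TPM with siRNA3, against 52.9, 52.7 and 57.1 TPM in the control. In MDA-MB-231 it had 25.4, 24.5 and 23.9 TPM with siRNA1, against 56.4, 56.0 and 50.4 TPM. Its siRNA3 libraries came near the controls and the other siRNA groups did not. UHRF1 changed by -3.12 ± 0.08 with siRNA1, -1.16 ± 0.08 with siRNA2 and -0.32 ± 0.08 with siRNA3 in A549, and by -1.21 ± 0.07 with siRNA1 in MDA-MB-231, with only CDC6 and FEN1 lower there. CHAF1A changed by -2.57, -0.95 and -0.58 in A549, and CHAF1B by -1.98, -0.86 and -0.88.

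Among the 3 regulators of S phase entry, the 2 cyclin E genes went apart. CCNE1 and CCNE2 encode cyclins E1 and E2, which activate CDK2, and CDC25A encodes the phosphatase that removes its inhibitory phosphates. CCNE2 had 0.45, 1.05 and 0.75 TPM with siRNA1, 6.10, 7.62 and 9.71 TPM with siRNA2 and 11.1, 9.24 and 7.48 TPM with siRNA3, against 10.9, 12.8 and 10.8 TPM in the control. With 22, 45.1 and 33 expected counts in the siRNA1 libraries it was the least well measured member. CCNE1 had 15.2, 15.7 and 16.3 TPM with siRNA1, 32.3, 33.5 and 30.3 TPM with siRNA2 and 29.3, 31.7 and 31.4 TPM with siRNA3, against 26.8, 28.8 and 25.7 TPM in the control. In TPM the siRNA1 libraries lay below all controls, and the siRNA2 and siRNA3 libraries lay just above them. CCNE2 changed by -4.22 ± 0.23 with siRNA1 (adjusted p = 1.87e-09) and -0.66 ± 0.18 with siRNA2, and its value of -0.31 ± 0.17 with siRNA3 was not called (95% interval -0.69 to 0.06). The siRNA2 call was lost on log2 of TPM plus 0.1 (-0.57, limma-trend adjusted p = 0.0686), and in the fit of all 18 libraries the siRNA3 value was -0.37 and was called lower (adjusted p = 0.0444). CCNE1 changed by -1.05 ± 0.10 with siRNA1, and its values of 0.15 ± 0.10 with siRNA2 (95% interval -0.07 to 0.37) and 0.19 ± 0.10 with siRNA3 (95% interval -0.03 to 0.41) were not called, though on log2 TPM the siRNA2 value was 0.23 and was called higher (limma-trend adjusted p = 0.014). The siRNA3 value of CCNE1 moved with single libraries: it was 0.09 without the third siRNA3 library (adjusted p = 0.42) and 0.28 without the first, where it was called higher (adjusted p = 0.036). The ratio of CCNE1 to CCNE2 in TPM was 33.8, 14.9 and 21.8 with siRNA1, against 2.46, 2.25 and 2.37 in the control. In MDA-MB-231 it was 0.996, 1.02 and 1.13 with siRNA1, against 0.685, 0.776 and 0.64. Both differences came without overlap and with an exact permutation p of 0.1, the smallest possible. CDC25A fell by 3.18, 0.91 and 0.66 with the 3 siRNAs in A549 and by 0.61 in MDA-MB-231.

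The siRNA1 effect was larger in A549 than in MDA-MB-231 for most members. Tested as an interaction over the 12 libraries of both lines, 48 of 52 members fell more in A549, where 27.0% of 16736 genes tested were called lower by this test, and 39 of them by at least 1 on the log2 scale (8.44% of all genes). The median difference was -1.54, beside 0.07 for all genes. It was widest for MCM10 (-4.91 ± 0.10, adjusted p = 8.39e-14), CDC45 (-4.14 ± 0.12) and CDT1 (-3.74 ± 0.21). By group the median difference ran from -3.57 for the licensing factors and -2.39 for MCM2 to MCM7 to -0.79 for polymerases delta and epsilon. ORC3, ORC4 and ORC5 differed in sign between the lines, with differences of -0.96 ± 0.10, -1.09 ± 0.13 and -1.12 ± 0.14. In MDA-MB-231 itself, however, ORC3 was not called by counts and the ORC5 call was lost without most single libraries. The 4 members that were not called were POLD2 (0.02 ± 0.10, 95% interval -0.19 to 0.23), PCNA (-0.02 ± 0.09, -0.21 to 0.16), GINS4 (0.12 ± 0.12, -0.13 to 0.38) and LIG1 (0.18 ± 0.09, -0.01 to 0.37). On log2 TPM, LIG1 (0.33, limma-trend adjusted p = 0.0032) and GINS4 (0.25, adjusted p = 0.049) were called as less reduced in A549, RFC1 was no longer called (-0.19, adjusted p = 0.075) and PCNA changed sign (0.12). BLM itself changed by -6.04 ± 0.10 in A549 and -2.76 ± 0.07 in MDA-MB-231, and whether the depth of its loss bears on the members was not tested.

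Across the 52 members the siRNA1 effects in the 2 lines, which share no library, went together with a Pearson r of 0.624 and a Spearman rho of 0.609, as a description over genes that share their libraries within a line. The same values over 14300 genes tested in both lines were 0.376 and 0.356. The effect was the more negative in A549 for 50 of the 52 members, the exceptions being GINS4 and LIG1 by the separate fits.

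**Figure D4:**
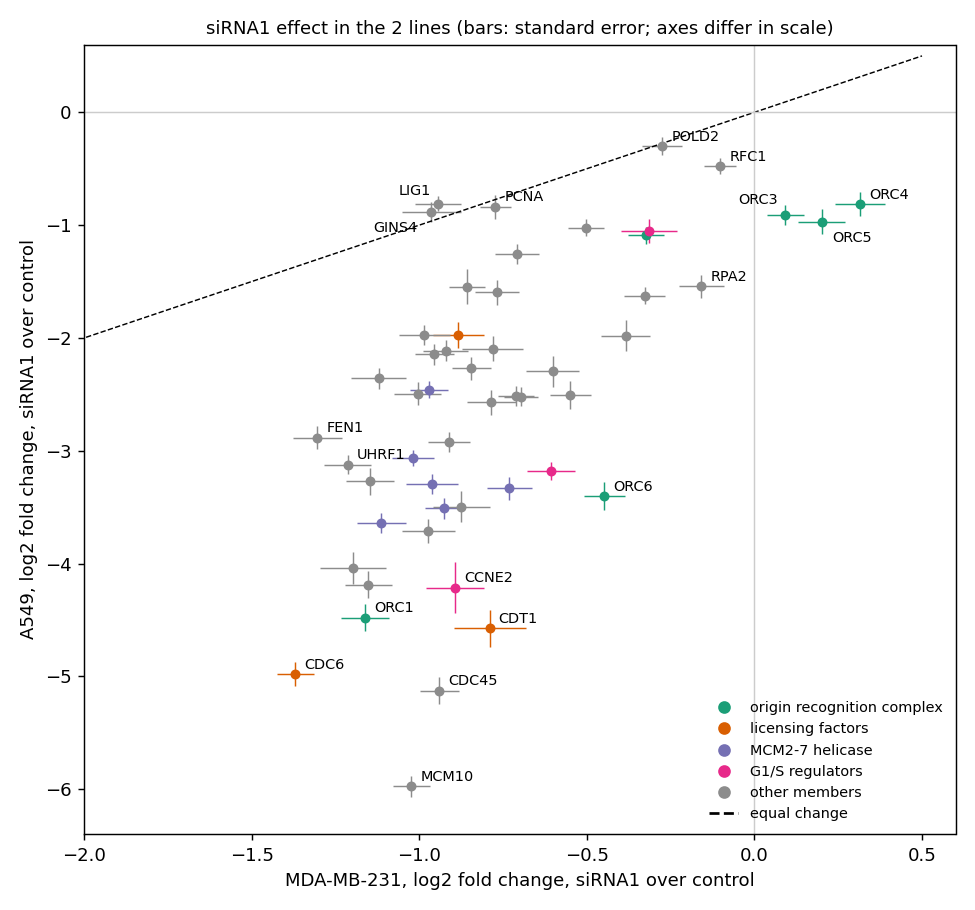
Log2 fold change with siRNA1 of each member in A549 (vertical axis) against MDA-MB-231 (horizontal axis, on a different scale); bars are standard errors and the dashed line marks equal change. Nearly all points lie below the line, MCM10 and CDC45 farthest, and ORC3, ORC4 and ORC5 lie to the right of 0 on the MDA-MB-231 axis.

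Within A549, siRNA1 stood apart from the other siRNAs and these resembled each other in size. Between siRNA1 and siRNA2, 47 of 52 members were called lower with siRNA1 (27.4% of all genes), 36 of them by at least 1 (8.0%), with a median of -1.50. MCM10 (-4.09 ± 0.09), CDT1 (-4.05 ± 0.16) and CDC45 (-4.01 ± 0.12) differed most, and ORC3 (-0.40 ± 0.09), GINS4 (-0.37 ± 0.09) and POLD2 (-0.34 ± 0.08) least among those called, and GINS4 lost its call on log2 of TPM plus 0.1 (-0.21, limma-trend adjusted p = 0.0504). The other 5 members (ORC4, ORC5, PCNA, RFC1 and LIG1) were not called, with values between -0.26 and 0.06. Between siRNA1 and siRNA3, 45 members were called lower with siRNA1 (32.3% of all genes), 38 of them by at least 1 (9.63%), and 2 higher (34.4% of all genes), GINS4 (0.81 ± 0.09) and POLD2 (0.25 ± 0.08). The POLD2 call was lost without the first siRNA3 library (0.21, adjusted p = 0.052) or the second (0.17, adjusted p = 0.14). MCM10 (-4.53 ± 0.09), CDC45 (-4.33 ± 0.12) and CDT1 (-4.20 ± 0.16) again differed most. Not called here were 5 members (ORC3, ORC4, ORC5, PCNA and LIG1), with values between -0.05 and 0.20. BLM averaged 0.583 TPM with siRNA1, 4.65 TPM with siRNA2 and 2.63 TPM with siRNA3, beside median changes of the members of -2.48, -0.89 and -0.80.

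Between siRNA2 and siRNA3, 16 members were called lower with siRNA2 (28.9% of all genes) and 12 higher (30.1%), shares close to those of all genes, with a median of -0.09. The members differed by gene. UHRF1 (-0.84 ± 0.08), FEN1 (-0.82 ± 0.10) and MCM3 (-0.76 ± 0.07) were lower with siRNA2, and GINS4 (1.17 ± 0.09, adjusted p = 1.18e-07), ORC3 (0.60 ± 0.09) and POLD2 (0.59 ± 0.08) were higher. Of the MCM2 to MCM7 genes 4 of 6 were called lower with siRNA2 and 0 higher, and of polymerases delta and epsilon 1 of 5 was lower and 3 were higher. On log2 TPM the split was 10 lower and 16 higher, and without the second siRNA3 library 7 were higher.

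**Figure D5:**
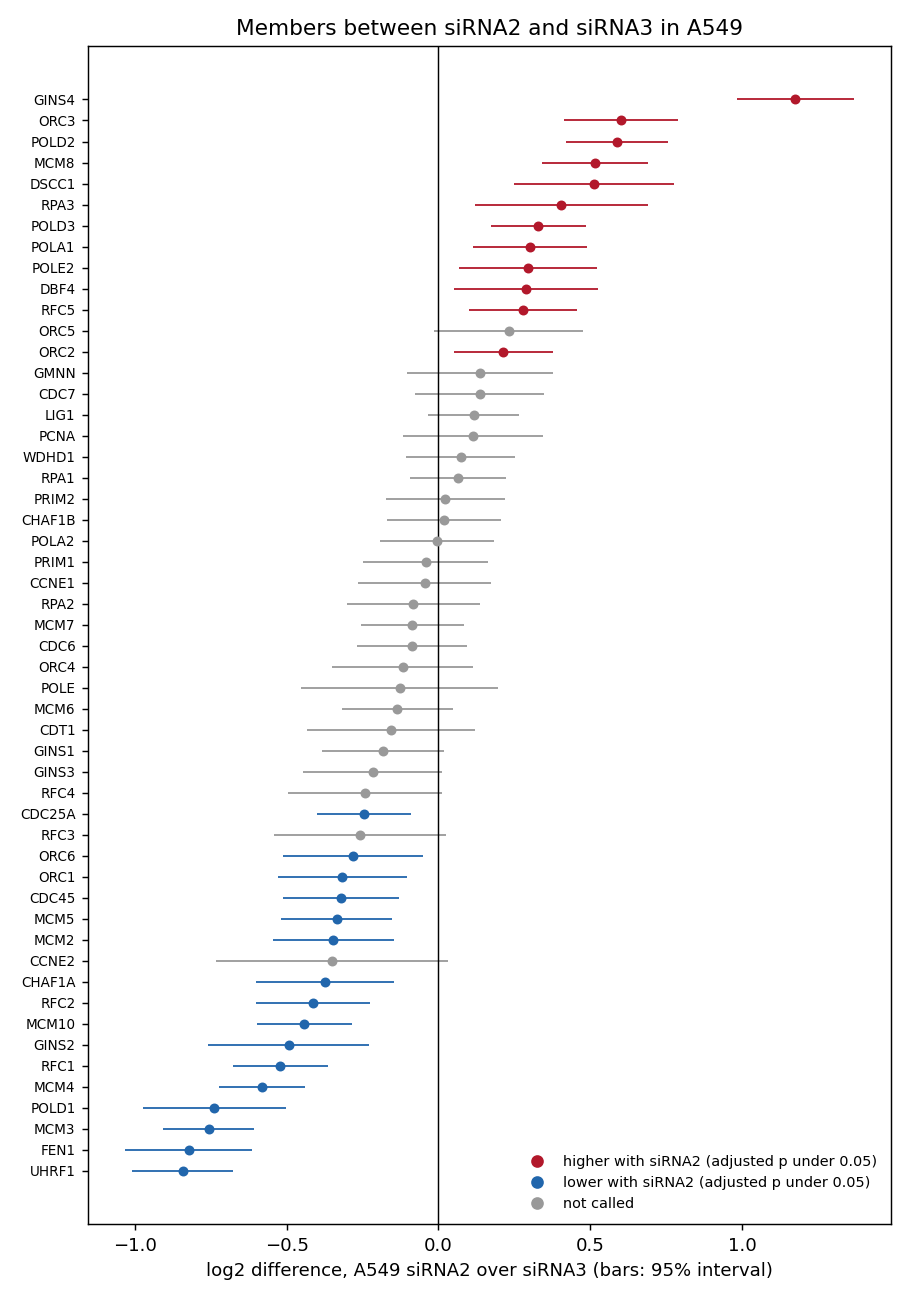
Log2 difference between siRNA2 and siRNA3 in A549 for all 52 members, ordered by value; points are edgeR estimates and bars are 95% intervals. Red points (12) are called higher with siRNA2, led by GINS4 at 1.17, and blue points (16) are called lower, led by UHRF1 at -0.84.

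Leaving out the third siRNA3 library kept the count of members lower with siRNA3 at 48 and made 1 member, RFC1, higher, where 31.4% of 16144 genes tested were called lower. POLD1 left the members called lower and RFC2 joined them.

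The starting levels differed between the lines about as often for the members as for all genes. Between the controls 11 of 52 members were not called, beside 3176 of 16736 genes tested. In the control libraries, 31 of 52 members were higher in A549 than in MDA-MB-231 (40.1% of 16736 genes) and 10 were lower (40.9%), with a median difference of 0.44 beside -0.004 for all genes. MCM6 had 135, 134 and 127 TPM in A549, against 55.5, 54.9 and 54.1 TPM in MDA-MB-231 (1.53 ± 0.06). GINS2 (1.51 ± 0.10) and ORC5 (1.34 ± 0.10) were also among the highest in A549, and CCNE2 (-0.87 ± 0.12), PRIM2 (-0.56 ± 0.08) and CDC7 (-0.47 ± 0.07) among the lowest. The split depends on the scale: on log2 TPM 25 were higher and 19 lower, with the median of all genes at -0.18, and without the second MDA-MB-231 control library 6 were lower by counts (6 to 13 over all such fits). Line and library preparation cannot be told apart here.

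Other replication genes mostly moved in the same direction. Their list too was drawn up with earlier results of these data known, so its counts are no independent check. It also holds regulators of the cell cycle, and CDK1 in it is one of the proliferation markers above. Of 41 further genes of replication and its regulation, 36 were called lower and 1 higher with siRNA1 in A549 (median -1.84), where 32.8% of all genes were called lower and 39.0% higher. With siRNA2 the counts were 33 and 1 (median -0.73, beside 28.4% and 32.5% of all genes), with siRNA3 30 and 2 (-0.69, beside 30.4% and 30.9%), and with siRNA1 in MDA-MB-231 32 and 2 (-0.63, beside 27.8% and 27.5%). The smallest adjusted p with siRNA1 in A549 belonged to DTL, a subunit of the ligase that degrades CDT1 (-4.87 ± 0.10), the cyclin gene CCNA2 (-5.50 ± 0.11), CDK1 (-5.08 ± 0.13) and the histone chaperone gene ASF1B (-5.13 ± 0.14). With siRNA2 they were SLBP (-1.72 ± 0.10), MCMBP (-1.29 ± 0.07), CDK2 (-1.46 ± 0.10) and DNA2 (-1.35 ± 0.10), with siRNA3 CCNA2 (-1.42 ± 0.09), MTBP (-1.69 ± 0.12), MCM9 (-0.85 ± 0.07) and RNASEH2A (-1.16 ± 0.09), and in MDA-MB-231 CCNA2 (-1.73 ± 0.06), DNMT1 (-1.0 ± 0.04), CDK1 (-1.05 ± 0.05) and CLSPN (-1.09 ± 0.06).

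POLD4, the smallest subunit of polymerase delta, went the other way in all 4 comparisons. It had 173, 151 and 181 TPM with siRNA1, 82.9, 80.4 and 72.5 TPM with siRNA2 and 118, 136 and 139 TPM with siRNA3, against 53.5, 54.0 and 53.0 TPM in the A549 control. In MDA-MB-231 it had 60.5, 75.0 and 66.3 TPM with siRNA1, against 47.5, 45.6 and 42.0 TPM. No siRNA library overlapped its controls. POLD4 rose by 1.41 ± 0.13 (adjusted p = 3.09e-07), 0.47 ± 0.13 (adjusted p = 0.00562) and 1.32 ± 0.13 (adjusted p = 1.09e-06) in A549 and by 0.50 ± 0.10 (adjusted p = 0.00181) in MDA-MB-231. POLD1 and POLD3 fell in the same comparisons, though the POLD1 call with siRNA3 was lost without the third siRNA3 library or the third control library. POLD2 was not called with siRNA2 (0.04 ± 0.08), and on log2 TPM it was not called with siRNA1 in A549. The other genes of this list called higher were the histone chaperone gene ASF1A with siRNA3 (0.32 ± 0.12, adjusted p = 0.0365) and the topoisomerase gene TOP1 with siRNA1 in MDA-MB-231 (0.28 ± 0.04, adjusted p = 0.000577). E2F1, the gene of an E2F factor, had 3.75, 3.27 and 3.86 TPM with siRNA1, against 28.0, 26.9 and 29.2 TPM in the A549 control. In MDA-MB-231 it had 27.5, 29.4 and 25.1 TPM with siRNA1, against 54.9, 49.7 and 41.1 TPM. These values cover siRNA1 only. E2F1 was also measured with siRNA2 and siRNA3 in A549, but those values are not given here.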

How the data were processed

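RNA of 18 libraries was sequenced, and they were placed in 6 groups of 3 by the cell line and siRNA in the labels. The deposited files hold RSEM expected counts, TPM and FPKM per gene symbol, per the file headers. RSEM and hg19 are named in the submitters' processing notes, without a version. The aligner and gene annotation were not given in the sources used here. Levels, sums and ratios used the TPM values as deposited, scaled to length and depth. The deposited FPKM values were not used here. RSEM also splits reads between similar transcripts of different genes, so 10.2% to 11.8% of expected counts per library were not whole (no tolerance). Among the members this touched ORC4 and MCM7 in 18 libraries, CCNE2 in 12, RPA3 in 9, DBF4 in 8 and GINS4 in 7.

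Expected counts were rounded and tested with edgeR 4.0.16 in R 4.3.3 (TMM, filterByExpr with a minimum count of 10 and a minimum total of 15, quasi-likelihood F test), with p adjusted by Benjamini-Hochberg over all genes tested. A549 (12 libraries) and MDA-MB-231 (6 libraries) were fitted separately, and the interaction and the control comparison used the 12 libraries concerned. Standard errors are the absolute log2 fold change over the root of F, and intervals are at 95%. On simulated counts the tests were checked for recovery of known changes. The members and lists were chosen with earlier results of these data known. Named with full statistics were the 3 lowest and 3 highest members per comparison, the largest and smallest change per subcomplex, members not called or opposite, and up to 4 related genes with the smallest adjusted p. Alternatives were other scalings and filters, DESeq2 1.42.0, limma-trend (limma 3.58.1) on log2 of TPM plus 1 or plus 0.1, a replicate block, other sets of libraries and each library left out. Library totals of 30143047 or more limit precision for few members, chiefly those with the fewest counts after siRNA1 in A549 (CCNE2, CDT1, CDC45 and MCM10).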

Additional observations from a re-analysis of the deposited data

Results flagged for a closer look

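The siRNA1 effect differed between the lines for 48 of the 52 members, tested as an interaction over the 12 libraries with edgeR. All 48 were called lower, beside 27.0% of the 16736 genes tested called lower by this test and 30.8% called higher. The difference, A549 minus MDA-MB-231, was -4.91 for MCM10, -4.14 for CDC45 and -3.74 for CDT1. It was smallest among the members called for RFC2 (-0.50), RPA1 (-0.48) and RFC1 (-0.33). For ORC3 (-0.96), ORC4 (-1.09) and ORC5 (-1.12) the effects in the lines had opposite signs. In MDA-MB-231, however, ORC3 was not called by counts, and the ORC5 call was lost without any one library other than the third control.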

How the results depend on the processing

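Over the settings that kept all libraries, between 50 and 52 members were called lower with siRNA1 in A549, 47 to 50 with siRNA2, 48 to 50 with siRNA3, 47 to 48 with siRNA1 in MDA-MB-231 and 47 to 48 in the interaction. Leaving out each library in turn gave 52, 50, 46 to 48, 47 to 48 and 48. The small counts in the other direction moved more. With siRNA2 in A549, 2 members were called higher on log2 TPM plus 1 and plus 0.1. With siRNA3, leaving out libraries gave 0 to 1 called higher, 1 without the first (CCNE1) or the third siRNA3 library (RFC1). In MDA-MB-231, 1 member was called higher by the DESeq2 Wald test and in the fit of all 18 libraries, up to 3 on the TPM scales (ORC3 added), and 1 to 2 without a library, where ORC5 lost its call in 5 of 6 fits. In the interaction, 2 members were called higher on TPM plus 1, 1 on TPM plus 0.1, and 0 to 1 without a library. Between siRNA1 and siRNA3, 5 were called higher on both TPM scales, 1 without the filter on low counts, and 1 to 3 without a library. Between siRNA2 and siRNA3, 10 were called lower on both TPM scales, and 7 to 13 were called higher without a library, the lowest without the second siRNA3 library. Between the controls, 19 were called lower on both TPM scales and 6 to 13 without a library, the lowest without the second MDA-MB-231 control library.

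Single members were recomputed for all 52 in the 4 siRNA comparisons and the interaction, and for 6 each between siRNAs and between controls. Among these the direction turned for 4 values, none of them called. POLD2 with siRNA2 was -0.0177 with all 18 libraries and ranged from -0.0249 to 0.0881 without a library. The POLD2 interaction was -0.00865 with DESeq2 size factors, -0.00870 by the DESeq2 Wald test, -0.0727 with at least 1 CPM in 3 libraries, -0.0938 with all 18 libraries, and -0.145 to 0.0621 without a library. The PCNA interaction was 0.12 on both TPM scales and -0.160 to 0.0309 without a library, and the GINS4 interaction -0.0275 to 0.205. The cause was not tested in these cases. Of single-gene values under alternatives, 5758 kept their direction and call, 30 lost a call, 19 gained one and 19 changed sign. The 28 comparisons of complex sums kept their direction with CPM in place of TPM.

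Same-numbered libraries had correlations of deviations from -0.461 to 0.244. Libraries of different number were not correlated for comparison, so these values cannot tell whether the replicate numbers pair the libraries. With the replicate block, 52, 50 and 48 members were called lower in A549 and 48 in MDA-MB-231 (RPA2 added, -0.16, adjusted p = 0.0406), 48 in the interaction, and 15 lower with 11 higher between siRNA2 and siRNA3.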
